A study of Camellia sinensis with 6 samples.

Results

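The enzymes of the general phenylpropanoid route and of lignin precursor synthesis were examined in leaves of the tea cultivar ‘Huangjinya’, which are yellow in strong light and green in weak light. Members were the unigenes, the transcripts assembled de novo from these libraries, with such an enzyme named among their listed protein hits. Of 127252 unigenes, 131 met that rule. Y+S comprised 3 libraries of green leaves from plants kept for 10 days under a single net that took away about 45% of the light. They were set against Y, 3 libraries of yellow leaves from plants in the open in the same field. All plants were 2 years old, each library was made from at least 10 leaves of the third position from the top, and the replicates came from different plants, so that the tests measure the spread between such pools. In such bulk samples, fewer cells of a type and less RNA per cell cannot be told apart.

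The route begins when phenylalanine ammonia-lyase (PAL) removes ammonia from phenylalanine, and cinnamate 4-hydroxylase (C4H) and 4-coumarate:CoA ligase (4CL) turn the product into coumaroyl-CoA. From there chalcone synthase leads to flavonoids such as the tea catechins, while the hydroxycinnamoyltransferases, caffeoyl-CoA O-methyltransferase, ferulate 5-hydroxylase (F5H), cinnamoyl-CoA reductase (CCR) and cinnamyl alcohol dehydrogenase (CAD) lead to chlorogenic acids and to the alcohols that polymerise into lignin. The members were sorted by the name of their best hit, or by their further hits where the best named no step. The steps reported here were PAL (28), C4H (2), 4CL (23), shikimate or quinate hydroxycinnamoyltransferase (HCT/HQT, 20) and agmatine coumaroyltransferase (ACT, 1). To these were added caffeoyl-CoA O-methyltransferase (CCoAOMT, 5), F5H (2), CCR (10) and CAD (31). The rule found no coumarate 3-hydroxylase and no caffeoylshikimate esterase. For the first this was a matter of wording, since Unigene10114, annotated as p-coumaryl-CoA 3′-hydroxylase, was in the assembly but outside the rule.

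The sequences of 2 members are tied to the study's quantitative PCR primers, which are printed because they belong to the assays of PAL and C4H. Whether they also match other contigs of the same clusters was not tested. The paper reports from quantitative PCR that genes of flavonoid synthesis, a set in which it places PAL and C4H, were lower under shading. The exceptions it names are neither of these. The fitted values of the 2 contigs given below lie on the other side. They come from fragment counts rather than from these assays, and the paper states that its samples for PCR verification were separate from those sequenced. CL1403.Contig2 is a long PAL contig of 2627 nt and CL1270.Contig2 is a C4H contig of 1810 nt. The primers run 5′ to 3′ and are 20 to 22 nt long.
PAL CL1403.Contig2 forward: caatagggaagctcatgtttgc
PAL CL1403.Contig2 reverse: cgctttggacatggttggttac
C4H CL1270.Contig2 forward: tcaccgagccagacacctac
C4H CL1270.Contig2 reverse: ccttagcctcctcttccaaga

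The labels of the members were checked against the KEGG orthologs in the same annotation. All C4H, F5H, CCR and CCoAOMT members and 25 of 28 PAL and 18 of 20 HCT/HQT members carried the ortholog of their step. Among the CAD members only 13 carried the CAD ortholog (K00083), while 17 carried that of CCR (K09753) and 1 carried none. Among the 4CL members 12 carried the 4CL ortholog (K01904) and 11 that of OPC-8:0 CoA ligase (K10526), a peroxisomal enzyme of jasmonate synthesis. Many members were pieces or variants of one gene, since 75 of the 131 fell into 18 assembly clusters of 2 or more contigs and lengths ran between 209 and 4112 nt, with a median of 1275 nt. Contigs of a cluster are alike in sequence, so that counting can split a gene’s fragments between them, and they are not independent observations.

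The libraries held 10022397 to 18742989 counted fragments, so that a count of 0 allowed up to 0.160 to 0.299 CPM (counts scaled to the library total), a limit that covers counting error only. Scaling factors (TMM) over the 6 libraries were 0.70 in Y+S3 and 0.76 in Y1 and lay between 1.08 and 1.29 in the others. The mean length of the unigenes, weighted by counts, was 1376 nt in Y+S3 and 1341 nt in Y1, against 1508 to 1674 nt in the others. Y+S3 and Y1 were left out of the study's own search for differential expression, so all tests were run over the 4 remaining libraries and over all 6. The leaf tissue was recognisable, since the 46 unigenes of Rubisco small chains and chlorophyll a/b-binding proteins summed to 36266 to 65873 FPKM (fragments scaled to transcript length and library total, a level per length) in Y+S and 53708 to 59770 FPKM in Y, and none was at 0 throughout. The 23 unigenes with vascular names summed to 682, 718 and 1669 FPKM in Y+S and to 858, 693 and 589 FPKM in Y, again with none at 0 throughout. These names were not alike. The 7 phloem proteins summed to 590.4, 639 and 1620 FPKM in Y+S and to 804, 619.7 and 499 FPKM in Y. The 12 cellulose synthases of the secondary wall summed to 34.9, 21.1 and 7.77 FPKM in Y+S and to 7.69, 12.1 and 14.3 FPKM in Y. The 4 xylem proteinases summed to 56.2, 57.5 and 41.3 FPKM in Y+S and to 45.6, 61.7 and 75.4 FPKM in Y. The values of a group are given in the order of its replicates 1 to 3.

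The members together took a larger part of the counts in every shaded library. Their share was 0.257, 0.265 and 0.238% in Y+S and 0.155, 0.195 and 0.201% in Y. Their summed level was 1931 ± 109.9 FPKM in Y+S and 1386 ± 169.9 FPKM in Y (SD, n = 3 each), and the groups did not overlap, although they overlapped once FPKM was divided by the TMM factor. The levels were unequal, with 107 members at a mean of at least 1 FPKM, 35 at 10 or more and 3 at 100 or more. After the filter on low counts 103 members could be tested over 4 libraries and 99 over 6. Of these, 4 passed over the 4 libraries through the shaded libraries alone and 2 through the sunlight libraries alone, and over 6 libraries it was 1 each.

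No member passed an adjusted p of 0.05 in the quasi-likelihood test of edgeR, the main test. Over 4 libraries it called 0 of 103 members, where 34 of 64281 unigenes (0.0529%) were called, and the lowest adjusted p of a member was 0.106. Over 6 libraries it called 0 of 99 members and 0 of 59300 unigenes (0%), with a lowest member adjusted p of 0.512. At an unadjusted p under 0.05 over 4 libraries, 25 members were higher under shading (24.3%, against 7.23% of all unigenes) and 5 lower (4.85%, against 7.69%). The 25 include the 4 members that passed the filter through the shaded libraries alone, which favoured that side. Of the other 99 members, 21 were higher (21.2%). Over 6 libraries 19 members were higher (19.2%, against 4.39%), or 18 of 98 without the 1 such member, and 0 lower (against 3.67%). The count of calls depended on the tool, since over 4 libraries DESeq2 called 9 of 103 members (1.59% of all unigenes), the likelihood ratio test of edgeR 15 of 103 (3.35% of all) and edgeR without the filter 9 of 131 (0.757% of all), all of them higher in Y+S. Over 6 libraries these 3 settings called 4 of 99 (0.966% of all), 1 of 99 (0.884% of all) and 0 of 131 members (0% of all). That 1 call was CL8202.Contig1, which passed the filter through the shaded libraries alone. The 15 calls over 4 libraries include CL9930.Contig2, Unigene23386 and CL1403.Contig7, which also passed so. The 9 calls without the filter include CL9930.Contig2 and Unigene23386, and Unigene61916, which had 0 counts in sunlight.

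The 27 members whose 3 shaded libraries all lay above the 3 sunlight libraries made up 27.3% of the 99 tested, against 6.67% of all unigenes, and the 6 that lay below made up 6.06%, against 7.28%. These groups were compared on TMM-scaled CPM, and 19 of the 27 also did not overlap in FPKM. Of the 27, CL8202.Contig1 passed the filter through the shaded libraries alone. Of the 6, CL10637.Contig1 passed it through the sunlight libraries alone. The filter thus favoured the side on which each of them lay. The median log2 fold change (Y+S over Y) was 0.22 over 4 libraries and 0.24 over 6, against 0.03 and 0.04 for all unigenes. PAL contributed much of this median, because for the other members it was 0.09 in both fits. At an unadjusted p under 0.05 over 4 libraries, 11 of these 78 were higher (14.1%, against 7.23% of all unigenes). A further 5 were lower (6.41%, against 7.69%). Over 6 libraries 10 of 77 were higher (12.99%, against 4.39%) and 0 lower (against 3.67%). Without overlap, 16 of the 77 lay above (20.78%, against 6.67%) and 6 below (7.79%, against 7.28%). The 11, the 10 and the 16 each include CL8202.Contig1.

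**Figure D1:**
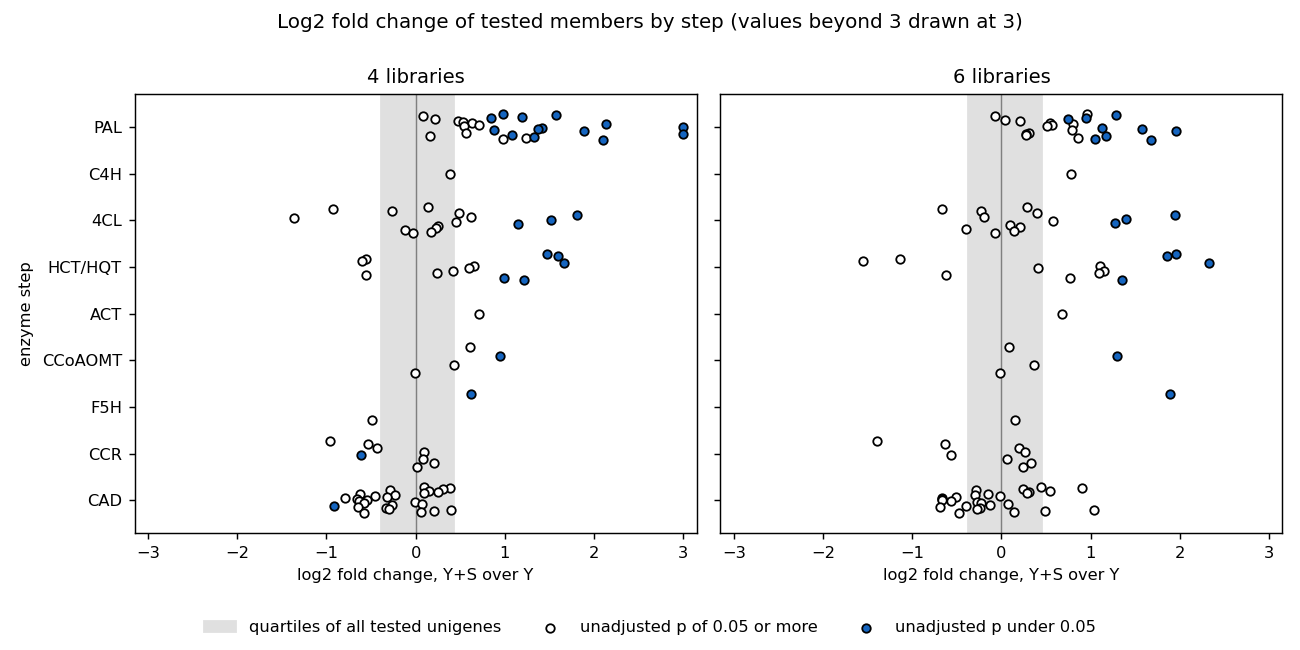
Log2 fold change, Y+S over Y (x axis), of each tested member of the enzyme steps shown (y axis), over 4 libraries on the left and 6 on the right; filled points have an unadjusted p under 0.05 in edgeR and the grey band spans the quartiles of all tested unigenes. All 25 tested PAL members lie above 0 on the left and 21 of 22 on the right, while 17 of the 27 tested CAD members lie below 0 in both.

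PAL, the entry enzyme, was the step with the most members on the shaded side. Its 28 members summed to 399.6, 399 and 235 FPKM in Y+S, against 184, 178 and 196 FPKM in Y. The groups did not overlap, and the means of 345 ± 95.0 FPKM in Y+S and 186 ± 8.98 FPKM in Y differed 1.85-fold (SD, n = 3 each). In FPKM Y+S3 was the lowest of the shaded libraries and stood close to the sunlight libraries, whereas after TMM scaling the sums were 357, 309 and 338 in Y+S and 242, 165 and 162 in Y, with Y+S2 the lowest of the shaded libraries. Over 4 libraries 14 of 25 tested PAL members were higher at an unadjusted p under 0.05 and 0 lower (7.23% and 7.69% of all unigenes). Without the 3 that passed the filter through the shaded libraries alone (CL9930.Contig2, Unigene23386 and CL1403.Contig7) it was 11 of 22. Over 6 libraries 9 of 22 were higher and 0 lower (4.39% and 3.67% of all unigenes). Of the tested PAL members, 12 over 4 libraries and 11 over 6 were contigs of the 1 cluster CL1403. The median log2 fold change was 0.98 over 4 libraries, or 0.93 without those 3 members, and 0.80 over 6.

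Unigene34746, a piece of 733 nt and the most abundant PAL member, had 65.1, 56.0 and 53.7 FPKM in Y+S and 29.4, 21.4 and 25.9 FPKM in Y. Every shaded library lay well above every sunlight library. Its log2 fold change was 1.32 ± 0.26 (SE) over 4 libraries and 1.17 ± 0.40 over 6, with adjusted p of 0.141 and 0.564 in edgeR. Unigene22478, the next in abundance, had 46.9, 33.3 and 28.03 FPKM in Y+S and 31.5, 30.1 and 22.4 FPKM in Y, and its groups overlapped. Unigene20280, a contig of 2415 nt most like PAL of Camellia japonica, had 17.5, 11.9 and 5.07 FPKM in Y+S and 1.16, 3.34 and 4.46 FPKM in Y. All shaded libraries were higher, by a narrow margin in Y+S3. The log2 fold change was 1.89 ± 0.32 over 4 libraries and 1.95 ± 0.47 over 6, with adjusted p of 0.113 and 0.512. Unigene58197, a fragment of 342 nt, had 13.7, 12.4 and 4.96 FPKM in Y+S and 3.04, 2.17 and 3.79 FPKM in Y, and again the groups did not overlap.

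The cluster CL1403 held 13 PAL contigs, which summed to 102, 119 and 48.3 FPKM in Y+S and to 39.9, 53.5 and 63.4 FPKM in Y. Y+S3 lay inside the range of the sunlight libraries in FPKM, whereas the groups did not overlap after TMM scaling. CL1403.Contig10 had the lowest adjusted p of all members over 4 libraries (0.106), with 32.1, 35.2 and 11.3 FPKM in Y+S and 8.16, 9.74 and 12.2 FPKM in Y. In edgeR the log2 fold change was 1.57 ± 0.25 over 4 libraries and 1.29 ± 0.35 over 6. Unigene11153, a PAL piece outside the cluster, showed the same layout with 28.5, 38.5 and 9.35 FPKM in Y+S and 8.19, 12.1 and 11.8 FPKM in Y. In both, Y+S1 and Y+S2 were far above and Y+S3 was among the sunlight libraries in FPKM, though above them after TMM scaling. CL1403.Contig2, the contig of the printed primers, had 12.7, 16.0 and 6.84 FPKM in Y+S and 5.18, 6.78 and 8.58 FPKM in Y. The fitted log2 fold change was 0.85 ± 0.24 over 4 libraries and 0.74 ± 0.29 over 6, with adjusted p of 0.202 and 0.600. Within the cluster the shift was unequal, since CL1403.Contig11, of 2395 nt, had 9.31, 13.4 and 7.01 FPKM in Y+S and 9.46, 10.1 and 10.5 FPKM in Y.

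The 3 PAL members with the ortholog K13064 had a rice protein as their best hit, as did 2 of the 4CL members. The PAL contig CL9930.Contig2 had 80, 13 and 1 counts in Y+S and 0 counts in each sunlight library, and over the 4 tested libraries it was at least 19.9-fold higher in Y+S, against a limit of 3 counts over the sunlight libraries. Without Y+S1 this bound was 6.60-fold, and the contig passed the filter through the shaded libraries alone. Unigene61916 had 64, 6 and 0 counts and Unigene63087 had 30, 2 and 0 counts in the shaded libraries, with 0 in sunlight. Most of these counts came from Y+S1. Of the 5 members with a rice hit, 4 had at least 10 counts in Y+S1 and Y+S2 together and at most 3 in the other libraries, as had 72 of the 630 unigenes with a rice hit (11.4%) and 2555 of all unigenes (2.01%). Where these transcripts came from was not tested. They were thin beside the other PAL members, whose sum without them was 387, 397 and 235 FPKM in Y+S and 184, 178 and 196 FPKM in Y.

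**Figure D2:**
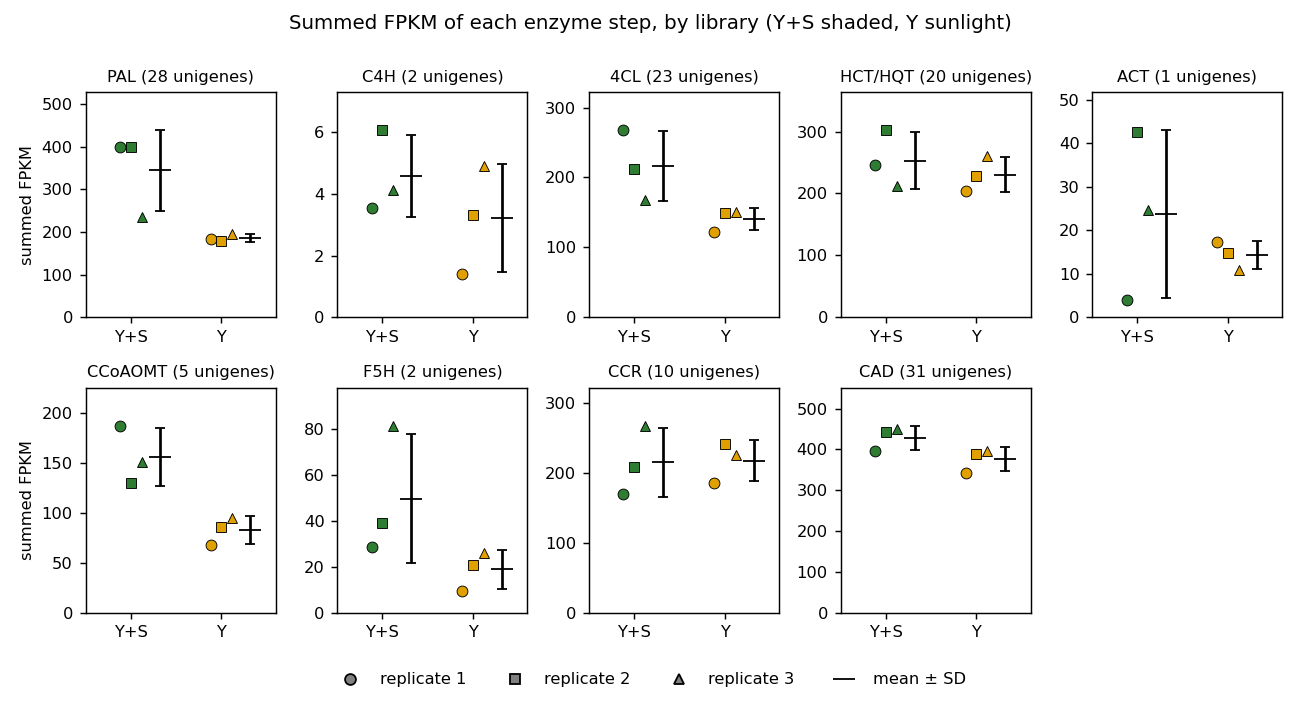
FPKM summed over the members of each enzyme step shown (y axis, linear and starting at 0), with 1 point per library and the mean ± SD (n = 3) beside them, shaded Y+S on the left and sunlight Y on the right of each panel. The groups do not overlap for PAL, 4CL, CCoAOMT and F5H, and they overlap for C4H, HCT/HQT, ACT, CCR and CAD.

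C4H, the cytochrome P450 that hydroxylates cinnamate, was represented by 2 members of low level. CL1270.Contig2, to which the printed C4H primers belong, had 2.80, 3.76 and 3.50 FPKM in Y+S and 1.42, 2.66 and 2.09 FPKM in Y. The shaded libraries were all higher, by a small absolute amount. Its log2 fold change was 0.39 ± 0.31 over 4 libraries and 0.78 ± 0.41 over 6, with adjusted p of 0.606 and 0.641. Unigene69558, a fragment of 284 nt, was at 0.629 to 2.32 FPKM in Y+S and at 0 to 2.81 FPKM in Y and could not be tested. Most C4H transcript lay outside the members, because the rule missed the spelling cinnamic acid 4-hydroxylase. The contig CL1270.Contig4, of the same cluster and named after its values were seen, had 51.6, 78.8 and 41.6 FPKM in Y+S and 35.8, 65.8 and 66.1 FPKM in Y, and its groups overlapped.

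4CL activates coumarate with coenzyme A. Its 23 members summed to 268, 213 and 168 FPKM in Y+S and to 122.5, 149 and 151 FPKM in Y, with no overlap and a 1.53-fold difference of the means. Unigene28088, a 4CL-like 7 protein and the most abundant member, had 52.5, 60.1 and 34.9 FPKM in Y+S and 20.4, 36.4 and 43.3 FPKM in Y, and the groups overlapped in FPKM but not after TMM scaling. Unigene51998 had 43.4, 43.7 and 26.9 FPKM in Y+S and 32.9, 36.4 and 34.1 FPKM in Y, with overlap on both scales. Unigene21322, most like a 4CL of petunia, had 27.1, 20.4 and 8.67 FPKM in Y+S and 4.51, 6.90 and 9.37 FPKM in Y. Y+S1 and Y+S2 stood apart, and Y+S3 exceeded the sunlight libraries only after TMM scaling. The log2 fold change was 1.52 ± 0.29 over 4 libraries and 1.39 ± 0.36 over 6, with adjusted p of 0.140 and 0.512.

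The 4CL members differed among themselves by ortholog. The 12 with the 4CL ortholog summed to 164.5, 173 and 105 FPKM in Y+S and to 95.4, 114 and 116 FPKM in Y, and the groups overlapped in FPKM but not after TMM scaling. The 11 with the OPC-8:0 CoA ligase ortholog summed to 103.5, 39.6 and 62.1 FPKM in Y+S and to 27.1, 35.9 and 34.8 FPKM in Y, without overlap in FPKM but with overlap after TMM scaling. In the shaded libraries most of the second sum came from CL2498.Contig1, a 4CL-like 5 protein named after its values were seen, with 78.8, 21.5 and 42.7 FPKM in Y+S and 10.3, 14.4 and 14.3 FPKM in Y. The other cluster of this kind, CL12352, most like 4CL-like 9, summed to 12.9, 11.5 and 8.73 FPKM in Y+S and to 8.67, 13.1 and 12.5 FPKM in Y, and the groups overlapped.

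HCT and HQT pass the coumaroyl group to shikimate or quinate. The step as a whole summed to 245, 303 and 212 FPKM in Y+S and to 204, 228 and 259.8 FPKM in Y, with overlap and a log2 ratio of 0.14. That sum joined unlike members. Unigene16016, which made up 56.9% of it and whose Swiss-Prot hit is a spermidine hydroxycinnamoyl transferase, had 71.6, 173 and 86.8 FPKM in Y+S and 156, 162 and 176 FPKM in Y. Y+S1 and Y+S3 were low while Y+S2 was level with sunlight, and after TMM scaling all shaded libraries lay below. In edgeR the log2 fold change was -0.55 ± 0.37 over 4 libraries and -0.63 ± 0.41 over 6, with adjusted p of 0.524 and 0.692. The other 19 members summed to 174, 129.6 and 125 FPKM in Y+S and to 47.6, 65.1 and 84.2 FPKM in Y, without overlap on either scale.

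Unigene57695, a shikimate O-hydroxycinnamoyltransferase by its Swiss-Prot hit, led these others with 114, 81.9 and 65.5 FPKM in Y+S and 22.8, 36.1 and 46.7 FPKM in Y. Each shaded library exceeded each sunlight library. The fitted log2 fold change was 1.22 ± 0.30 over 4 libraries and 1.35 ± 0.35 over 6, with adjusted p of 0.177 and 0.512. The 2 contigs of CL11602, named after their values were seen, summed to 20.6, 11.7 and 15.5 FPKM in Y+S and to 2.51, 4.94 and 6.30 FPKM in Y, again without overlap. CL1636.Contig1, on the other side, had 1.88, 2.53 and 0.407 FPKM in Y+S and 3.13, 2.36 and 3.90 FPKM in Y, and the groups were apart only after TMM scaling. The single ACT member, CL429.Contig1, an enzyme that joins coumaroyl-CoA to agmatine, had 3.93, 42.6 and 24.8 FPKM in Y+S and 17.3, 14.9 and 10.8 FPKM in Y. Its shaded libraries spread on both sides of the sunlight libraries.

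**Figure D3:**
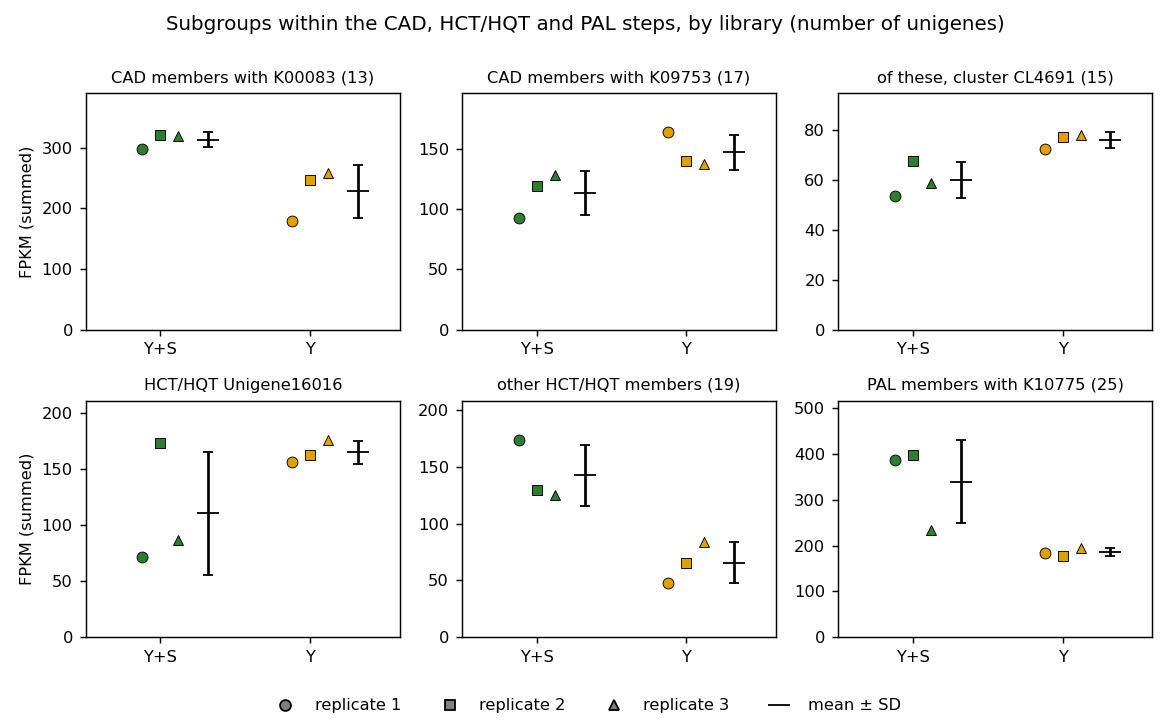
FPKM (y axis, linear and starting at 0) of subgroups of the CAD, HCT/HQT and PAL members in each library, with the mean ± SD (n = 3), shaded Y+S left and sunlight Y right. The sum of the CAD members with K00083 is higher in all shaded libraries. The sum of those with K09753 is lower in FPKM, though overlapping after TMM scaling. Unigene16016 has the lower mean in Y+S, with overlap in FPKM, while the sum of the other 19 HCT/HQT members is higher in Y+S.

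CCoAOMT and F5H, which act on the methoxylation of the lignin units, each had 1 dominant member that was higher in all shaded libraries. For CCoAOMT this was CL1938.Contig2, with 146, 84.2 and 125 FPKM in Y+S and 38.0, 58.3 and 59.4 FPKM in Y. Its log2 fold change was 0.95 ± 0.35 over 4 libraries and 1.30 ± 0.43 over 6, with adjusted p of 0.273 and 0.555. It carried 71.4% of the step, whose sum was 156 ± 29.1 FPKM in Y+S and 82.9 ± 13.9 FPKM in Y (SD, n = 3 each). Unigene28657 had 18.0, 27.2 and 16.4 FPKM in Y+S and 14.7, 14.5 and 17.6 FPKM in Y, with overlap.

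F5H, a cytochrome P450 that leads to syringyl lignin, was carried to 89.5% by CL2534.Contig1, with 25.5, 35.4 and 77.0 FPKM in Y+S and 7.80, 16.6 and 21.5 FPKM in Y. The shaded libraries were all higher, and Y+S3 more than the others. In edgeR the log2 fold change was 0.62 ± 0.24 over 4 libraries and 1.89 ± 0.65 over 6, with adjusted p of 0.296 and 0.569, so the value was larger with Y+S3 and Y1 in the fit. Y+S3 was also the library with the highest sum of phloem proteins (1620 FPKM, against 499 to 804 FPKM in the others). Its sum of secondary wall cellulose synthases was low (7.77 FPKM, against 7.69 to 34.9 FPKM in the others). Its sum of xylem proteinases was the lowest (41.3 FPKM, against 45.6 to 75.4 FPKM in the others). The part of any of these in the F5H value was not tested. Unigene45911, a fragment of 475 nt, had 3.03, 3.54 and 4.33 FPKM in Y+S and 1.85, 4.30 and 4.62 FPKM in Y.

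**Figure D4:**
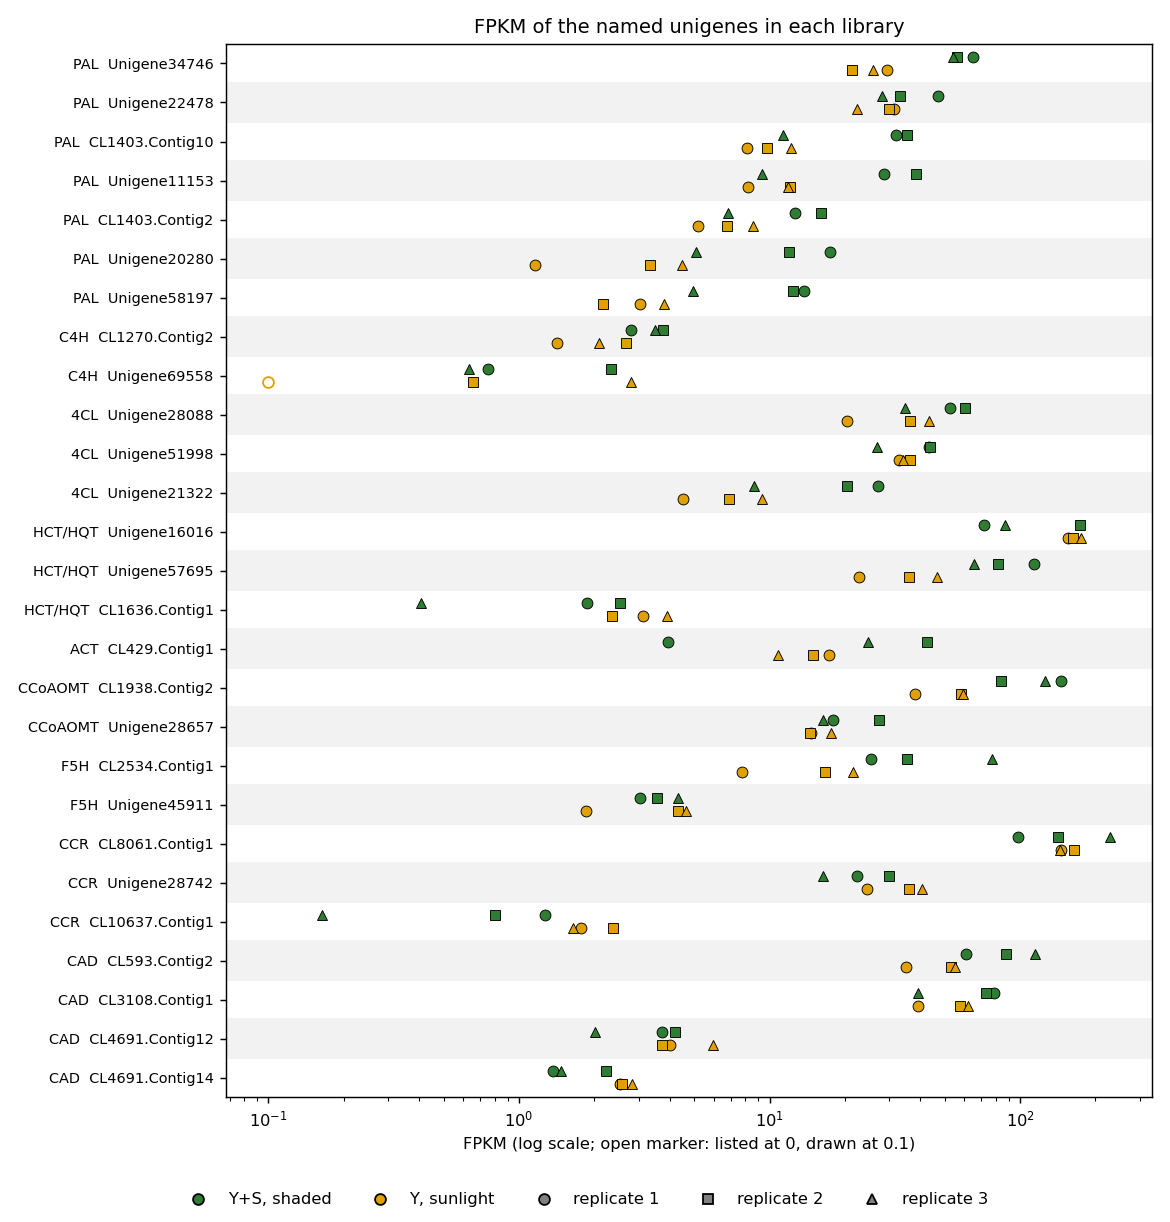
FPKM (x axis, log scale) of the 27 named unigenes in each library, by enzyme step down the page, with shaded Y+S above sunlight Y within each row and 1 marker shape per replicate. HCT/HQT Unigene57695, CCoAOMT CL1938.Contig2, F5H CL2534.Contig1 and PAL Unigene34746 have every shaded library above every sunlight library, and CCR CL8061.Contig1 does not.

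CCR and CAD carry out the reductions that yield the lignin alcohols, and they showed no common shift. The CCR members summed to 169.7, 208 and 268 FPKM in Y+S and to 185.5, 242 and 225.5 FPKM in Y, with a log2 ratio of -0.02. CL8061.Contig1, 71.1% of the step, had 98.3, 142 and 229 FPKM in Y+S and 145, 164 and 144 FPKM in Y. The shaded libraries reached both below and above the sunlight libraries, and the log2 fold change was -0.43 ± 0.27 over 4 libraries and 0.20 ± 0.56 over 6, with adjusted p of 0.498 and 0.942. Unigene28742 had 22.3, 29.9 and 16.3 FPKM in Y+S and 24.5, 36.0 and 40.5 FPKM in Y, which were apart after TMM scaling only. The fitted log2 fold change was -0.61 ± 0.23 over 4 libraries and -0.56 ± 0.28 over 6, with adjusted p of 0.293 and 0.636. CL10637.Contig1, most like a tetraketide pyrone reductase in Swiss-Prot, was low, with 1.27, 0.806 and 0.164 FPKM in Y+S and 1.76, 2.38 and 1.65 FPKM in Y. It passed the filter through the sunlight libraries alone.

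The CAD members as a whole differed little, with 395, 442 and 449.6 FPKM in Y+S and 342, 389 and 397 FPKM in Y, but their orthologs lay on opposite sides. The 13 with the CAD ortholog summed to 299, 321 and 319 FPKM in Y+S and to 179, 248 and 258 FPKM in Y, without overlap. The 17 with the CCR ortholog summed to 92.9, 119 and 128 FPKM in Y+S and to 163, 140.0 and 137 FPKM in Y, without overlap in FPKM but with overlap after TMM scaling. Of these, 15 belong to the cluster CL4691, which summed to 53.3, 67.6 and 58.8 FPKM in Y+S and to 72.4, 77.3 and 77.9 FPKM in Y. In each fit 14 of its 15 contigs had a negative log2 fold change, with a median of -0.54 over 4 libraries and -0.29 over 6. At an unadjusted p under 0.05, 1 contig was lower over 4 libraries and 0 over 6. As contigs of 1 cluster are alike in sequence, their common sign is not repeated evidence. CL4691.Contig14 had 1.37, 2.22 and 1.47 FPKM in Y+S and 2.54, 2.57 and 2.83 FPKM in Y, without overlap. CL4691.Contig12 had 3.72, 4.21 and 2.01 FPKM in Y+S and 4.02, 3.71 and 5.95 FPKM in Y and was apart after TMM scaling only.

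Among the CAD members with the CAD ortholog, CL593.Contig2 was the most abundant. It is annotated as CAD 3 of tea, with a mannitol dehydrogenase as its Swiss-Prot hit, and had 60.6, 88.2 and 115 FPKM in Y+S and 35.1, 52.9 and 55.2 FPKM in Y. The groups did not overlap, although Y+S1 came near Y3. Its log2 fold change was 0.40 ± 0.25 over 4 libraries and 1.03 ± 0.47 over 6, with adjusted p of 0.495 and 0.622. CL3108.Contig1 had 79.0, 73.1 and 39.2 FPKM in Y+S and 39.2, 57.5 and 61.8 FPKM in Y, which overlapped in FPKM. CL12199.Contig2, a CAD 1 contig named after its values were seen, had 69.2, 65.8 and 80.9 FPKM in Y+S and 27.0, 51.5 and 48.3 FPKM in Y, without overlap.

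The neighbouring steps were counted with the same tests. Laccases and dirigent proteins, which act in the polymerisation of the lignin alcohols, summed over 44 unigenes to 553, 646 and 352 FPKM in Y+S and to 270, 282 and 341 FPKM in Y, and Y+S3 stood only just above Y3. At an unadjusted p under 0.05, 16 of 35 were higher and 1 lower over 4 libraries, and 8 of 33 higher and 1 lower over 6, with medians of 0.84 and 0.70 on the log2 scale. The sums of the secondary wall cellulose synthases were likewise highest in Y+S1 and Y+S2 (34.9 and 21.1 FPKM, against 7.69 to 14.3 FPKM in the others), as was the PAL sum in FPKM. The xylem proteinases did not share this order, with their highest sums in Y3 and Y2 (75.4 and 61.7 FPKM, against 41.3 to 57.5 FPKM in the others). The part of either list in these results was not tested. The entry into flavonoids (chalcone synthase, chalcone isomerase and flavanone 3-hydroxylase, 18 unigenes) summed to 2179, 3714 and 3056 FPKM in Y+S and to 3017, 4311 and 4016 FPKM in Y. Here 1 of 14 was higher and 2 lower over 4 libraries, and 0 higher and 1 lower over 6, counts near the share of all unigenes (7.23% higher and 7.69% lower over 4 libraries, 4.39% and 3.67% over 6). The median log2 fold change of this list was -0.28 over 4 libraries and -0.13 over 6, with 9 and 10 of the 14 negative. The shikimate route that supplies phenylalanine (79 unigenes) had 5 of 52 higher and 6 lower over 4 libraries, and 1 of 50 higher and 3 lower over 6, with medians of -0.04 in both fits, again near the share of all unigenes. No unigene of these 3 lists passed an adjusted p of 0.05 in edgeR in either fit.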

How the data were processed

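RNA of 6 leaf pools was sequenced on an Illumina instrument, and the authors filtered the reads, assembled them de novo with Trinity, TGICL and Phrap, and annotated the unigenes by Blast. The deposited table gives, per library, raw fragment counts, which all tests used, and FPKM, which the levels and sums used; the authors pooled no replicates. The aligner and the use of strand are not given in the sources used here. The table's key was followed for the library names; the sample descriptions conflict with it for 2 codes, always within a group, so that group membership does not depend on it, but which libraries are called Y1 and Y+S3, and with it every value over 4 libraries, depends on the key.

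Low counts were removed with filterByExpr and libraries scaled by TMM; edgeR 4.0.16 (R 4.3.3) gave the quasi-likelihood F test, with Benjamini-Hochberg adjustment over all tested unigenes, over the 4 libraries the study used (Y+S1, Y+S2, Y2, Y3) and over all 6. The standard error is the log2 fold change divided by the square root of F. The threshold was an adjusted p of 0.05. At the study's threshold (0.001 and a log2 fold change of 1) no unigene passed the quasi-likelihood F test. The paper reports both higher and lower genes at its threshold from another tool, DESeq, which was not run here. The scripts were tested on simulated counts. Sums over enzyme steps were described without a test, since the members were chosen with results known.

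Members and lists were chosen with earlier results of these data known. The 4CL wording was widened and the ACT step and the rice list were added after annotations were seen. Named were the 2 most abundant members of each step, any called member, the 6 higher and 6 lower members without overlap that had the lowest p over 4 libraries, and the 2 primer targets. Alternatives were DESeq2 1.42.0, limma 3.58.1 on log2 FPKM with pseudocounts of 0.5 and 1, other scaling, no filter, summed clusters and left-out libraries. 1 table row had been emptied and was not used. 1 step of 9 members enters the counts and sums over all members but is not reported here.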

Additional observations from a re-analysis of the deposited data

How the results depend on the processing

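Over 4 libraries the members called numbered 9 with DESeq2, 9 with no filter on low counts and 15 with the likelihood ratio test of edgeR, against 0 in the quasi-likelihood test, and leaving out 1 library gave 0 to 23, namely 15 of 102 without Y+S1 (5.03% of all unigenes called), 23 of 108 without Y+S2 (9.55% of all) and 0 without Y2 or Y3 (0 of all). A lone library was assumed there to vary like the other group. Over 6 libraries DESeq2 called 4 and the likelihood ratio test 1, and every left-out library gave 0. Members higher at an unadjusted p under 0.05 in the settings of 6 libraries ran between 13 and 24, where the share of all unigenes ran from 2.29 to 8.73%. Members lower at that p over 4 libraries numbered 2 with DESeq2 and 3 with summed clusters, and 0 (without Y2) to 11 (without Y+S2, 11 of 108 members, against 11.4% of all unigenes) with 1 library left out. Over 6 libraries they numbered 3 with DESeq2 (4.13% of all unigenes) and 1 with RLE scaling (3.67% of all). They numbered 1 with no filter (2.995% of all) and 2 with the likelihood ratio test (4.24% of all). With 1 library left out they numbered 0 to 6. The 6 were without Y+S3, of 103 members, where 9.61% of all unigenes were lower. Members lower without overlap numbered 3 with each cluster counted once, where 7.28% of all unigenes, not reduced to clusters, lay below. The median log2 fold change of the members stayed between 0.11 and 0.39.

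Some log2 ratios of summed FPKM moved. Without the most abundant member they were 0.055 for CAD, 0.095 for C4H, 0.26 for CCoAOMT, 0.017 for F5H and 1.12 for HCT/HQT. Over the 4 libraries they were -0.31 for CCR and 0.52 for F5H. With only the step's own ortholog CAD came to 0.46. Adding other unigenes with the ortholog gave 0.092 for C4H, 0.52 for CCoAOMT and 1.13 for HCT/HQT. For HCT/HQT the largest addition was CL13887.Contig1, whose Swiss-Prot hit is another acyltransferase, DCR. It had 317, 343 and 2035 FPKM in Y+S and 97.4, 178 and 136 FPKM in Y, and the ratio without it was not computed. The addition was chosen after seeing the data, as were the single count per cluster and the division by TMM factors. So were the removal of rice hits and of members that passed the filter through the shaded libraries alone.

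With 1 library left out, the ratios ran from 0.77 to 1.10 for PAL, 0.43 to 0.77 for 4CL, 0.76 to 1.03 for CCoAOMT, 0.84 to 1.70 for F5H, 0.13 to 0.25 for CAD, -0.20 to 0.13 for CCR, -0.01 to 0.25 for HCT/HQT, 0.16 to 0.96 for C4H and 0.00 to 1.23 for ACT. CL429.Contig1 (ACT) had a log2 fold change of 0.71 over the 4 libraries, which reversed to -1.68 without Y+S2 and was 1.55 without Y+S1. The causes were not tested.

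The replicate numbers were fitted as a block over 6 libraries, where 14 of 99 members were higher at an unadjusted p under 0.05 (2.29% of all unigenes), 0 lower (1.58% of all) and 0 called (0 of all). Libraries of the same number did not deviate together (r of -0.40, 0.01 and -0.49), and none correlated best with its own number. With 4 libraries only 1 number is shared and no block could be fitted.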
